A study of Homo sapiens with 6 samples.

Results

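The comparison described here is RBP2 shRNA 1 against scramble in H1299 cells, an established line from a human lung carcinoma. RBP2 is an older name of KDM5A. Its members are the probe sets with a mean of at least 4 on the log2 scale over the 6 arrays of the series, which were 22362 of 54675. Leaving out 32 control probe sets gave 22330 that were tested, and those that carry 1 gene symbol stand for 10526 genes. The probe set just inside the limit, for LOC105274304, had a mean of 4.0001 and differed by -0.37 between shRNA 1 and scramble. The one just outside it, for TMEM191A, had a mean of 3.999 and differed by 0.33.

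All cells were H1299 cells in RPMI with 10% fetal calf serum, infected with lentivirus and harvested for RNA after 72 hours. The scramble group carried a control hairpin (2 arrays, named H1299 SC in the labels), the shRNA 1 group carried the hairpin RBP2 KD1 (2 arrays), and a second knockdown group carried another hairpin against the same gene, RBP2 KD2 (2 arrays, called shRNA 2 here). Every group, the control included, therefore went through infection with a hairpin virus. The comparison rests on 1 hairpin sequence in 1 cell line at 1 time. Nothing in the labels ties the replicates to cultures of their own. The p-values therefore cover the spread between these arrays alone, and it may be technical.

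KDM5A removes methyl groups from lysine 4 of histone H3, a mark of active promoters, and was first found through its binding to the retinoblastoma protein. In lung cancer it has been studied for its part in proliferation and in drug-tolerant cells. ATF4, which recurs below, is a transcription factor whose translation rises when the initiation factor eIF2 is phosphorylated under amino acid shortage or endoplasmic reticulum stress. Its target genes take up and make amino acids, charge tRNAs and encode stress regulators such as TRIB3 and CHAC1.

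The 6 arrays had medians between 7.65 and 7.73 over the tested probe sets. No pair of arrays was identical (0 pairs). As markers of H1299 cells, VIM, ZEB1, CDH2, KRT8 and KRT18 were detected in the scramble arrays, with VIM at 14.94 and 14.95 and ZEB1 at 9.82 and 10.03. CDH1 stood at the floor of the data on every array. Of 17 measured markers of other cell types, 16 were below 4 on all 6 arrays, the exception being COL1A1. The summed log2 level of the 17 was 42.3 and 42.5 in scramble cells and 42.8 and 42.4 with shRNA 1. The 16 stood at or near the floor, so the sum could hardly move. COL1A1 entered by its brightest probe set, and a dimmer one rose by 4.25 with shRNA 1.

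KDM5A was lower in both shRNA 1 arrays on each of its 4 tested probe sets. The brightest read 9.35 and 9.42 in scramble cells and 7.42 and 7.27 with shRNA 1, so the groups lay far apart relative to their replicates. The difference was -2.04 ± 0.11 on the log2 scale (SE of the limma fit), a 4.11-fold fall (limma adjusted p = 0.0065). The other tested probe sets of KDM5A fell by 2.06, 2.54 and 2.42. One more probe set did not reach the mean of 4. It read 3.15 and 2.63 in scramble cells and 2.25 on both shRNA 1 arrays. With shRNA 2, KDM5A read 6.66 and 6.72, and the difference of shRNA 1 minus shRNA 2 was 0.65 ± 0.11 (adjusted p = 0.012).

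The closest relatives of KDM5A did not pass. KDM5B, which removes the same mark, read 8.15 and 8.42 in scramble cells and 8.80 and 9.36 with shRNA 1. Its difference was 0.79 ± 0.26 (limma adjusted p = 0.13), and it passed with the replicate number as a block in the model (adjusted p = 0.016). KDM5C read 5.94 and 6.35 against 6.41 and 6.29, and the groups overlapped. Among 17 tested enzymes and subunits that write or erase H3K4 methylation, 2 rose and 2 fell. Of all tested genes 9.61% were called in either direction. KDM1B, a demethylase of the same lysine, fell from 8.67 and 8.74 to 6.60 and 7.16, a difference of -1.82 ± 0.23. The methyltransferase SETD7 fell by 1.34, and the methyltransferases SETD1B and KMT2B rose by 1.31 and 0.83. With the block 5 of the 17 were higher and 3 lower, where 10.3% and 14.6% of all tested genes were. Of 16 tested partner proteins of KDM5A, HDAC1 fell by 0.94 and EMSY rose by 1.14. With the block 3 of the 16 were higher and 1 lower, beside those same shares of all tested genes.

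More genes fell than rose with shRNA 1. Limma called 1012 of 10526 genes, of which 297 rose (2.82%) and 715 fell (6.79%), with 528 (5.02%) both called and at least 2-fold. In the same-numbered pairs, 454 genes were at least 2-fold lower in both (4.31%) and 99 at least 2-fold higher in both (0.941%). With the replicate number as a block, which the data allow since same-numbered arrays deviated together, limma called 2626 genes (24.9%), of which 1084 rose (10.3%) and 1542 fell (14.6%), and all 1012 were among them. Counted by probe set without the block, 1994 of 22330 were called (8.93%). With only the 4 arrays of shRNA 1 and scramble, or with any single array left out, no gene was called, while 2237 to 2676 genes had an unadjusted p under 0.05.

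**Figure D1:**
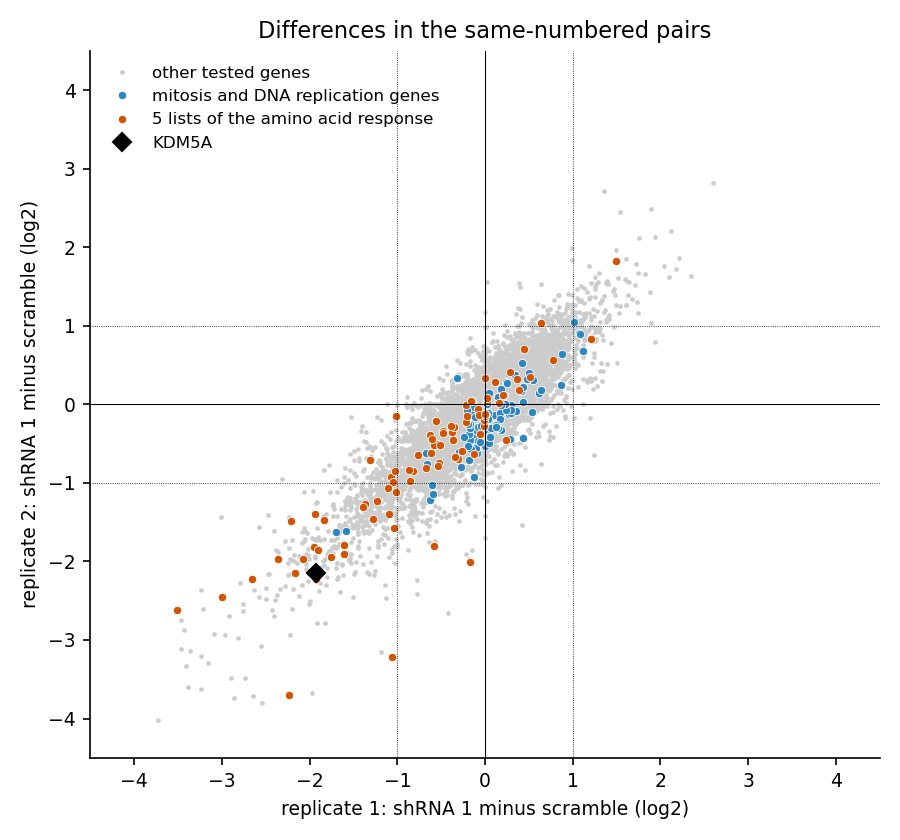
Difference of shRNA 1 minus scramble (log2) in replicate 1 on the horizontal axis and replicate 2 on the vertical axis, 1 point per tested gene; dotted lines mark 2-fold. Genes of the 5 amino acid response lists (orange) reach far into the lower left quadrant, where KDM5A (black) lies at -1.93 and -2.15, while mitosis and DNA replication genes (blue) lie mostly near 0.

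COQ2, which attaches the isoprenoid tail during coenzyme Q synthesis, had the largest fall. It read 9.16 and 9.11 in scramble cells and 5.43 and 5.09 with shRNA 1, a difference of -3.88 ± 0.15 (limma adjusted p = 0.0064). All COQ2 values of shRNA 1 lay more than 3 log2 units below scramble. ADCK2, a mitochondrial kinase-like protein, read 8.55 and 8.51 against 5.31 and 4.90, and its other probe sets fell by 4.23 and 1.71. The other 14 of the 16 tested members of the coenzyme Q list were not called and ranged from -0.65 (COQ3) to 0.52 (ADCK1). The 2 falls were 12.5% of the list, where 6.79% of all tested genes fell. With the block 4 of the 16 were lower and 1 higher, COQ3 and ADCK1 among them. Over all tested genes 14.6% were lower and 10.3% higher with the block.

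The neuropeptide gene CRH read 6.59 and 7.40 in scramble cells and 3.20 and 3.80 with shRNA 1. A second, dimmer probe set of CRH differed by -0.83 and was not called. SPP1, the matrix protein osteopontin, fell from 9.55 and 10.32 to 6.31 and 7.11. The collagenase MMP1 read 5.39 and 6.64 in scramble cells and 2.84 on both shRNA 1 arrays. The membrane protein TMEM158 fell from 11.72 and 11.97 to 8.86 and 8.23, and the secreted glycoprotein STC2 from 6.77 and 6.99 to 3.25 and 4.37. VGF, a granule protein of neuroendocrine cells, fell by 3.19, the carboxypeptidase CPD by 3.25 on its brightest probe set and by 2.68 and 2.51 on the others, and keratin KRT15 by 3.29. For each of these genes both shRNA 1 arrays lay below both scramble arrays. CRH, MMP1, VGF and KRT15 read below 4 on both shRNA 1 arrays. Dim values are compressed toward the floor of the data, so the sizes of these falls are uncertain.

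The actin-binding profilin PFN2 read 12.16 and 11.99 in scramble cells and 8.72 and 9.13 with shRNA 1. The small GTPase RAB39B fell by 3.11 and by 2.84 on its other probe set, and TSR3, an enzyme of ribosomal RNA modification, by 3.11 and 3.70. On its brightest probe set RAB39B, too, read below 4 on both shRNA 1 arrays. OGFRL1 fell by 3.22, but its other probe sets had -1.83 and -0.33. DPYSL3, a cytoskeletal regulator of neurons, read 6.55 and 6.47 in scramble cells and stood at its floor of 3.14 on both shRNA 1 arrays, so its difference of -3.37 is a lower bound of the fall. These genes complete the 15 largest falls.

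**Figure D2:**
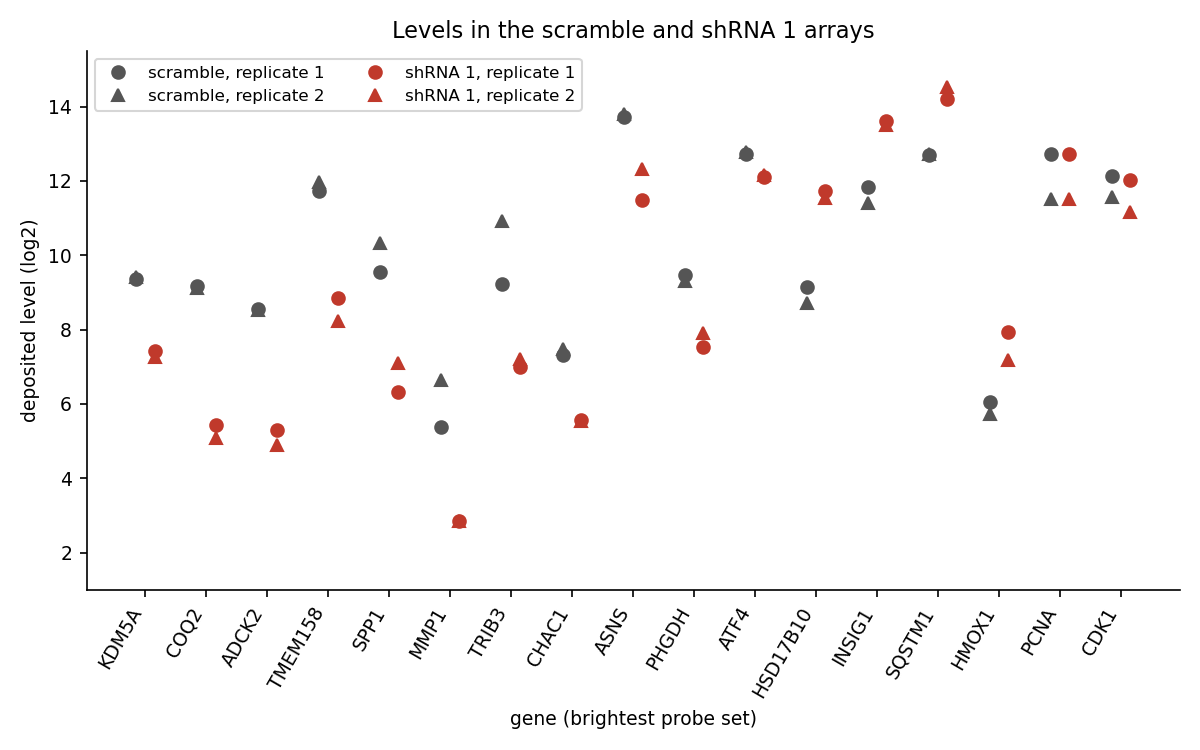
Deposited log2 level (vertical axis) of 17 genes in the 2 scramble arrays (grey) and the 2 shRNA 1 arrays (red); circles are replicate 1 and triangles replicate 2, and levels are to be compared within a gene. The KDM5A points fall from above 9 to below 8, COQ2 from above 9 to near 5, and the PCNA points of both groups coincide at each replicate number.

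The largest rise was in HSD17B10, a mitochondrial dehydrogenase. It read 9.14 and 8.73 in scramble cells and 11.74 and 11.54 with shRNA 1, a 6.52-fold difference (2.71 ± 0.19, limma adjusted p = 0.0073). INSIG1, which holds back sterol-regulated transcription when sterols are abundant, rose from 11.85 and 11.40 to 13.60 and 13.51, and its other probe sets rose by 1.90 and 2.09. The beta adrenergic receptor ADRB1 rose from 6.97 and 5.98 to 8.86 and 8.47. In all 3 genes both shRNA 1 arrays lay above both scramble arrays.

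The autophagy receptor SQSTM1 (p62) rose from 12.70 and 12.72 to 14.20 and 14.54, and heme oxygenase HMOX1 from 6.06 and 5.74 to 7.93 and 7.17. Of the 3 other probe sets of SQSTM1, 2 were called higher and 1 had -0.21. The dynein light chain DYNLRB1 rose by 1.74 and 1.78 on its probe sets, and the taurine transporter SLC6A6 rose by 1.61. The interferon-induced gene IFIT1 rose by 1.94, and the zinc finger factor GLIS2, the hydrolase NUDT19, the dermatan sulfate enzyme DSEL, the small GTPase RAB30 and the homeobox gene HOXB5 rose by 1.60 to 1.90. Other probe sets gave smaller values for some of the 15 largest rises. TMED4, which sorts proteins leaving the endoplasmic reticulum, rose by 2.17 on its brightest probe set and by 0.92 and 0.95 on the others. NFATC1, a calcium-regulated transcription factor, rose by 1.99 on its brightest and had 0.01 on the other, and HOXB5 had 0.47 on its other probe set.

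Many genes of the amino acid response fell. Over the 5 lists of ATF4 and related factors, stress effectors, amino acid transporters, amino acid and folate enzymes and tRNA synthetases, 32 of 82 tested genes fell (39.0%, against 6.79% of all tested genes) and 5 rose (against 2.82%). The median difference of the 82 was -0.54, beside 0.00 over all tested genes, and 67 of them were below 0. With the replicate block 41 fell and 6 rose, where 14.6% and 10.3% of all tested genes did. In both same-numbered pairs, 25 of the 82 were at least 2-fold lower and 1 was at least 2-fold higher. Over all tested genes those shares were 4.31% and 0.941%.

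Among the transcription factors, ATF4 itself moved little but with small error. It read 12.73 and 12.77 in scramble cells and 12.12 and 12.15 with shRNA 1, a difference of -0.62 ± 0.11 (limma adjusted p = 0.036) that was -0.62 in each pair. The AP-1 repressor JDP2 fell from 9.06 and 8.85 to 6.41 and 6.63, and CEBPB, a partner of ATF4, from 10.89 and 11.26 to 9.28 and 9.35. CEBPG, another dimerization partner, fell by 1.37 and 1.10 on its probe sets. XBP1, a factor of the unfolded protein response, fell by 1.25 on its brightest probe set and had 0.16 on the other. ATF5 rose instead, from 7.95 and 7.75 to 8.59 and 8.79. The stress factor DDIT3 (CHOP) read 10.06 and 10.89 against 9.48 and 9.08, which did not pass (adjusted p = 0.081, and 0.059 with the block). In all, 5 of 13 fell and 1 rose, with a median of -0.62.

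Of the 19 tested stress effectors, 9 fell and 1, SQSTM1, rose, with a median of -0.999. TRIB3, a pseudokinase that feeds back on ATF4, read 9.23 and 10.91 in scramble cells and 6.99 and 7.21 with shRNA 1, and a dimmer probe set had -0.81, which was not called. CHAC1, which degrades glutathione, fell from 7.32 and 7.47 to 5.56 and 5.53. SESN2, which inhibits mTORC1 when leucine is short, read 7.69 and 7.78 against 5.52 and 5.63, with 1 of the shRNA 1 arrays at its floor, so the fall is a lower bound. The CDK inhibitor CDKN1A, the growth factor VEGFA, the kinase FYN, the translation inhibitor EIF4EBP1 and the degradation factor HERPUD1 fell by 0.84 to 1.88, but 2 other probe sets of VEGFA had only -0.44 and -0.21. GDF15, a secreted stress cytokine, read 4.84 and 7.10 in scramble cells and 3.78 and 3.89 with shRNA 1 and was not called, the scramble arrays being far apart.

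Transporters and enzymes of amino acids fell as well. The cystine transporter SLC7A11 read 9.97 and 9.90 in scramble cells and 7.61 and 7.93 with shRNA 1, and its second probe set fell by 2.26. The neutral amino acid transporter SLC1A4 fell from 8.12 and 8.08 to 6.19 and 5.85, and SLC7A5, the large neutral amino acid transporter, from 11.63 and 11.22 to 9.55 and 9.25. SLC3A2, the heavy chain that partners both SLC7A5 and SLC7A11, fell by 1.07, and SLC38A1 by 0.70. SLC43A2 and SLC36A1 rose by 1.02 and 0.67, so the list had 5 of 15 lower and 2 higher.

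Of the 18 tested enzymes of amino acid and folate metabolism, 9 fell and 1 rose. Asparagine synthetase ASNS read 13.70 and 13.81 in scramble cells and 11.49 and 12.32 with shRNA 1. PHGDH, the first enzyme of serine synthesis, fell from 9.46 and 9.31 to 7.52 and 7.92, and the mitochondrial folate enzyme ALDH1L2 from 7.84 and 8.66 to 4.84 and 6.21. CBS and CTH, the enzymes that turn homocysteine into cysteine, fell by 1.35 and 0.85, the transaminases GOT1 and BCAT1 by 1.30 and 1.08, and the mitochondrial one-carbon enzymes SHMT2 and MTHFD2 by 1.02 and 0.67. The mitochondrial transaminase BCAT2 rose by 0.57. PSAT1 and PYCR1, with -1.01 and -1.32, passed only with the block (adjusted p = 0.028 and 0.006).

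Of the 17 cytosolic tRNA synthetases, 4 fell: GARS1, from 13.06 and 13.10 to 11.15 and 11.24, and WARS1, IARS1 and TARS1 by 0.94, 0.74 and 0.51. The other 13 ranged from -0.55 (EPRS1) to 0.16 (KARS1). The chaperones of the endoplasmic reticulum had a median of -0.20, with 3 of 20 lower and 1 higher. That was 15% and 5%, against 6.79% and 2.82% of all tested genes. PDIA6, a disulfide isomerase, fell by 0.88, and its 3 other probe sets were also called lower. EDEM1, which directs misfolded proteins to degradation, fell by 0.89, HSP90B1 fell by 0.59, and DNAJB9 rose by 0.60. The main chaperone HSPA5 read 12.29 and 12.74 against 12.02 and 12.04, which did not pass (adjusted p = 0.16).

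The kinases and phosphatase subunits that act on eIF2 had no called member by limma among 7 (1 had an unadjusted p under 0.05, and 1 was called with the block). Over all tested genes 9.61% were called, and 24.9% with the block. EIF2S1, the alpha subunit of eIF2 that those kinases phosphorylate, is one of the 7 and was not uniform across its probe sets. Its brightest probe set read 12.68 and 12.27 in scramble cells and 12.46 and 11.75 with shRNA 1. A second read 11.01 and 10.84 against 7.26 and 6.64, and another 10.45 and 10.75 against 7.60 and 7.59. The latter fell by 3.98 and 3.00 (limma adjusted p = 0.0065 for each), while the brightest had -0.37 and did not pass. With shRNA 2 the same 3 EIF2S1 probe sets had -0.29, -0.21 and -0.08, and the latter pair of probe sets differed between the hairpins (adjusted p = 0.0016 and 0.0014). Which transcripts each probe set reads was not analysed here.

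**Figure D3:**
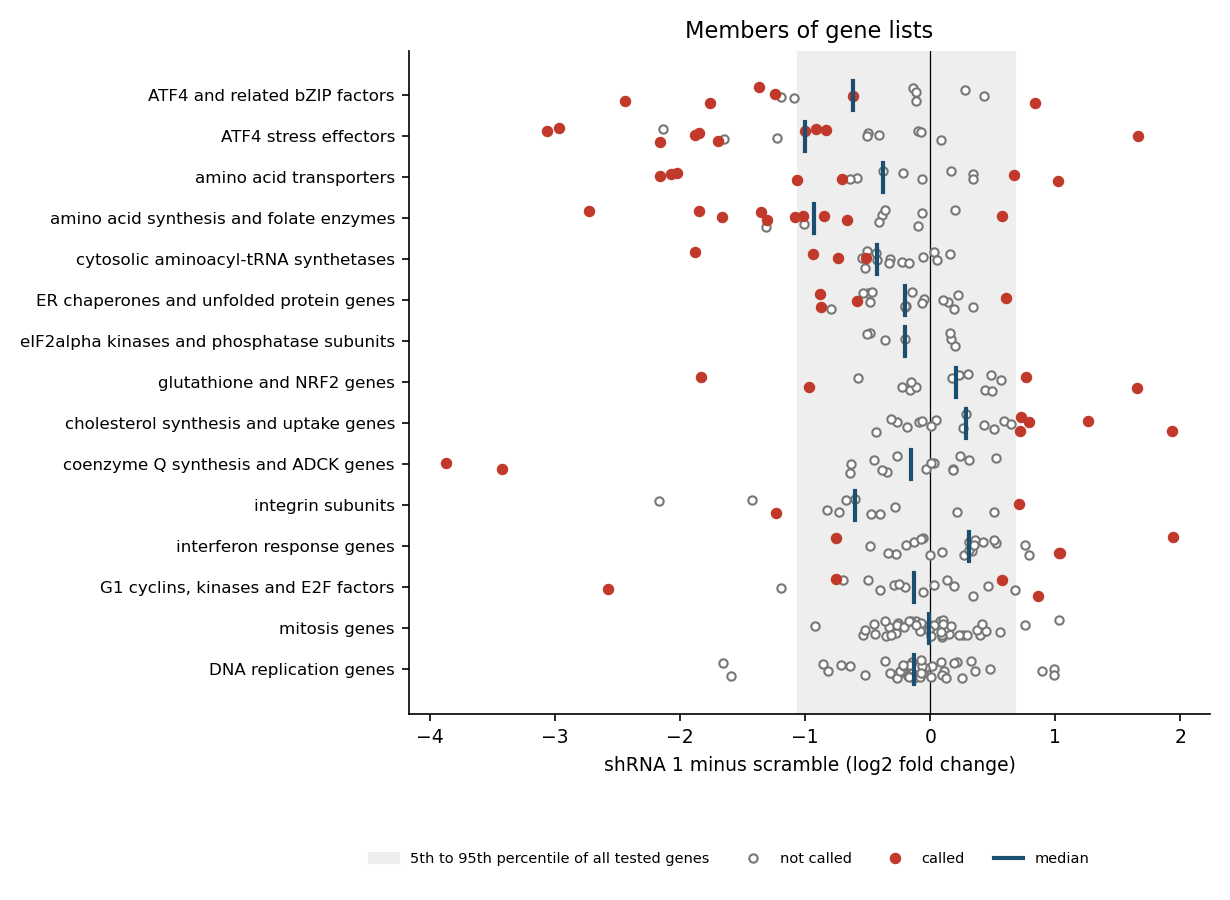
Log2 fold change of shRNA 1 minus scramble (horizontal axis) for the tested members of 15 gene lists; filled points were called by limma, bars mark each list's median, and the grey band spans the 5th to 95th percentile of all tested genes, -1.06 to 0.67. The stress effector and amino acid enzyme medians lie near -1, whereas the mitosis median is at -0.01 with no filled point.

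ATF4 binds with C/EBP partners to a composite element whose core is TGATGNAA, and the promoters of the falling genes were searched for it because the genes moved together. The windows run from 250 bases before to 50 after a gene's start in RefSeq (GRCh38.p14), both strands were searched, and a gene counts if any of its listed starts holds a match. The core was present in 226 of 8733 tested genes with a promoter (2.59%), in 33 of 602 genes that fell (5.48%) and in 3 of 243 that rose (1.23%). Of the 5 amino acid lists, 27 falling genes had a promoter and 13 of them held the core, as did 6 of 38 that were not called. Those 13 are among the 33 falling genes with the core, so the share over all falling genes is not independent of the lists. These lists hold many genes chosen because ATF4 is known to bind them. The shares are therefore a description and no support for binding in these cells. The following stretches show the core of 6 falling genes in capitals, as TGATGNAA or as its reverse complement, on the strand of the gene.
CHAC1: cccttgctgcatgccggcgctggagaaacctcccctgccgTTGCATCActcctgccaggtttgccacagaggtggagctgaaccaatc
CEBPG: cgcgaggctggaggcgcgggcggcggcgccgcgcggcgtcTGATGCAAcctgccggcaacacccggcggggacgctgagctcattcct
JDP2: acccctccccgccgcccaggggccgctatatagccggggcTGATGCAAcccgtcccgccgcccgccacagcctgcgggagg
SLC1A4: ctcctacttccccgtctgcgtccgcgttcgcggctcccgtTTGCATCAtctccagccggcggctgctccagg
ASNS: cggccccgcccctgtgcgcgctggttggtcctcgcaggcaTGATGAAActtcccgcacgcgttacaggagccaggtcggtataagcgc
GARS1: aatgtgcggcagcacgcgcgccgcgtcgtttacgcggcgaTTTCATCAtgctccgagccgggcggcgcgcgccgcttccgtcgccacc
The stretch of CHAC1 lies at chr15:40953222-40953309 on the plus strand, with the core starting 209 bases before the gene's start. That of CEBPG lies at chr19:33374031-33374118 (plus, 42 bases before), that of JDP2 at chr14:75427966-75428046 (plus, 16 before) and that of SLC1A4 at chr2:64989352-64989423 (plus, 7 before). ASNS is at chr7:97872429-97872516 (minus, 68 before) and GARS1 at chr7:30594805-30594892 (plus, 33 before). CHAC1, CEBPG, JDP2 and SLC1A4 share the version with C at the open position, in either orientation, while ASNS and GARS1 have A there.

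A short GC-rich element, CCGCCC, which the ARID domain of KDM5A is known to bind, was searched in the same windows. It was present in 78.6% of tested genes with a promoter, in 83.1% of those that fell and in 82.3% of those that rose. A sterol regulatory element written as TCACNCCAC was found in 1.42% of tested genes and in none (0) of the 5 cholesterol genes that rose, which says only that these letters are not in these windows.

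Cell division genes had no called member. Limma called 0 of 48 tested mitosis genes and 0 of 43 DNA replication genes, beside 9.61% of all tested genes. Of the 2 lists, 1 mitosis gene and 3 replication genes had an unadjusted p under 0.05. The median difference was -0.01 for mitosis, with 23 genes above and 25 below 0, and -0.13 for replication, with 15 above and 28 below. With the replicate block, 2 mitosis genes were higher and 1 lower, and 1 replication gene was higher and 3 lower. Over all tested genes 10.3% were higher and 14.6% lower with the block.

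The replicate numbers carried more of the spread in these genes than the hairpin did. PCNA, the replication clamp, read 12.72 and 11.50 in scramble cells and 12.74 and 11.51 with shRNA 1. MCM2, a subunit of the replicative helicase, read 10.14 and 8.91 against 10.36 and 8.91. The mitotic kinase CDK1 read 12.14 and 11.56 against 12.02 and 11.17, and its partner CCNB1 12.43 and 11.50 against 12.67 and 11.78. In each of these genes replicate 2 lay below replicate 1 by about as much in both groups, and the groups overlapped. The proliferation marker MKI67 read 9.66 and 8.78 in scramble cells and 9.53 and 7.86 with shRNA 1.

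Replicate 2 was below replicate 1 in 47 of 48 mitosis genes in scramble cells (median difference -0.76) and in 47 of 48 with shRNA 1 (median -1.04). For DNA replication it was lower in 43 of 43 in both groups, by medians of -0.89 and -1.07. Over all tested genes the same median was 0.00 in both groups. The difference between the 3′ and 5′ control probe sets of ACTB, a measure of RNA and labelling quality, moved with the replicate number too. It was 1.99 and 2.37 in scramble cells and 1.93 and 2.56 with shRNA 1, and its part in the replicate difference was not tested. That of GAPDH lay between -0.11 and 0.02 on all arrays.

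This spread widened the intervals of the model without the block, whose median SE was 0.47 for mitosis genes and 0.45 for replication genes, against 0.17 over all genes. Its 95% interval lay within 2-fold either way for 5 mitosis and 7 replication genes. With the block the median SE was 0.16 and 0.22, and the interval lay within 2-fold for 40 of 48 mitosis genes and 28 of 43 replication genes. For CDK1 the interval with the block was -0.57 to 0.05, for CCNB1 -0.02 to 0.55 and for PCNA -0.56 to 0.59, so larger changes of these genes fall outside it. Pair by pair, the mitosis median was 0.16 in replicate 1 and -0.13 in replicate 2.

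Some members departed from this level pattern with the block. The phosphatase CDC25B, which activates CDK1, read 9.86 and 9.83 in scramble cells and 10.87 and 10.88 with shRNA 1 (adjusted p = 0.063 without and 0.034 with the block), and the kinesin KIF20A had 0.76 (0.029 with the block). HMMR, a spindle protein, had -0.92 (0.028 with the block). The helicase subunit MCM6 read 11.90 and 11.19 against 10.32 and 9.59 and the chromatin assembly subunit CHAF1B 6.85 and 5.9995 against 5.15 and 4.38, with -1.59 and -1.66 (0.011 and 0.014 with the block). GINS3, of the replicative helicase complex, had 0.99 (0.025 with the block).

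**Figure D4:**
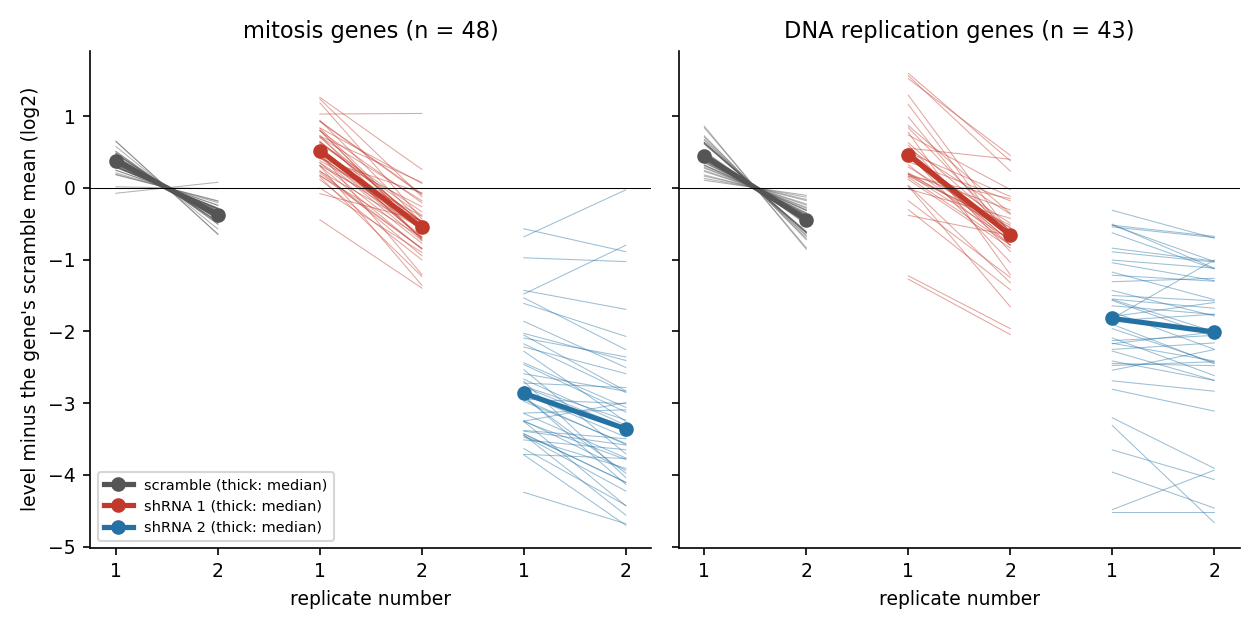
Level of each mitosis gene (left, n = 48) and DNA replication gene (right, n = 43) minus its mean in scramble cells (vertical axis, log2), by replicate number within scramble (grey), shRNA 1 (red) and shRNA 2 (blue); thin lines are genes and thick lines medians. The scramble lines are centred on 0 by construction; the shRNA 1 medians run beside them at both replicate numbers, and the shRNA 2 medians lie well below.

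Of 18 tested G1 cyclins, kinases and E2F factors, 2 fell and 2 rose, with a median of -0.13 (6.79% of all tested genes fell and 2.82% rose). Cyclin E1 (CCNE1) read 7.38 and 7.12 in scramble cells and 5.16 and 4.18 with shRNA 1, a 5.96-fold fall (limma adjusted p = 0.021). Cyclin D1 (CCND1) fell from 11.29 and 11.43 to 10.53 and 10.68, its kinase CDK6 rose from 12.20 and 11.98 to 13.03 and 12.87, and the transcription factor E2F3 rose by 0.57. CDK6 was also called higher on 2 of its 4 other probe sets, whose values ranged from -0.05 to 0.94. The partner kinases CDK2 and CDK4 had 0.13 and 0.19 and did not pass.

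Of the 9 tested CDK inhibitors and pocket proteins, the inhibitor CDKN1B (p27) rose from 11.72 and 11.81 to 12.46 and 12.44, CDKN1A (p21) fell from 8.36 and 7.84 to 6.40 and 6.02, and CDKN2D (p19) fell from 6.28 and 6.20 to 4.93 and 4.70. The retinoblastoma gene RB1 had 0.32 and did not pass. The list thus had 22.2% lower and 11.1% higher, against 6.79% and 2.82% of all tested genes. With the block 4 members of this list were lower and 1 higher, where 14.6% and 10.3% of all tested genes were.

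The difference between the hairpins was tested as shRNA 1 minus shRNA 2, which limma called for 4099 genes (38.9%), 1761 higher with shRNA 1 (16.7%) and 2338 lower (22.2%). Of the mitosis genes 46 of 48 were higher with shRNA 1 than with shRNA 2 and none lower, and of the replication genes 27 of 43 were higher and none lower. CDK1 differed by 2.80 ± 0.38 (adjusted p = 0.0067), CCNB1 by 2.78 and MKI67 by 2.84, while PCNA (0.89) and MCM2 (2.10) did not pass. With the replicate block PCNA and MCM2 passed as well (limma adjusted p = 0.026 and 0.0037). Against scramble the mitosis median was -0.01 with shRNA 1 and -3.12 with shRNA 2. These medians share their control arrays.

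Of the 82 tested genes of the amino acid response, 17 were higher and 13 lower with shRNA 1 than with shRNA 2, where 16.7% of all tested genes were higher and 22.2% lower. Side by side, the differences from scramble were -2.97 and -2.89 for TRIB3, -2.16 and -2.98 for SLC7A11 and -1.85 and -2.45 for ASNS. SESN2 had an array at its floor with each hairpin, so its falls are lower bounds and are not set side by side. GARS1 was lower with shRNA 1 than with shRNA 2 by 1.19 (adjusted p = 0.0026), ATF4 was higher by 0.74 (0.0075) and CHAC1 was higher by 1.21 (0.0061).

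By the rule for named genes, those called in both contrasts and with the largest difference between the hairpins were ranked. CRH led the genes lower with shRNA 1. Beside the scramble and shRNA 1 levels given above, CRH read 9.70 and 10.33 with shRNA 2. The hairpins differed by -6.51 ± 0.39 (limma adjusted p = 0.0016). MMP1 read 5.39 and 6.64, 2.84 on both arrays, and 9.0026 and 7.80 for scramble, shRNA 1 and shRNA 2. HK2, the hexokinase that starts glycolysis, read 9.35 and 9.78, 6.26 and 6.86, and 10.73 and 10.55. The peroxisomal oxidase ACOX2, RAB39B, the myosin MYH15, TMEM158, SPP1, the adaptor PAG1 and the nuclear receptor NR4A2 had differences of -4.16 to -4.74. Each of the 10 lay below scramble with shRNA 1 and above it with shRNA 2. CRH, MMP1, ACOX2, RAB39B, MYH15 and PAG1 read below 4 on both shRNA 1 arrays, so the sizes of their differences are uncertain.

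HMOX1 led the genes higher with shRNA 1, and its shRNA 2 arrays read 4.49 and 4.02, below both of its scramble arrays. INSIG1 read 11.85 and 11.40, then 13.60 and 13.51, then 10.92 and 10.94. SQSTM1 and ATF5 differed between the hairpins by 2.46 and 2.58, CDK6 by 2.62, and JARID2, a subunit of the Polycomb complex, by 2.22. NFATC1, MFAP3, KLHDC8B and the kinase MAP3K21 completed the 10 with 2.47 to 3.24. MFAP3 had 0.10 and 0.18 against scramble on its other probe sets, where the brightest had 0.79.

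**Figure D5:**
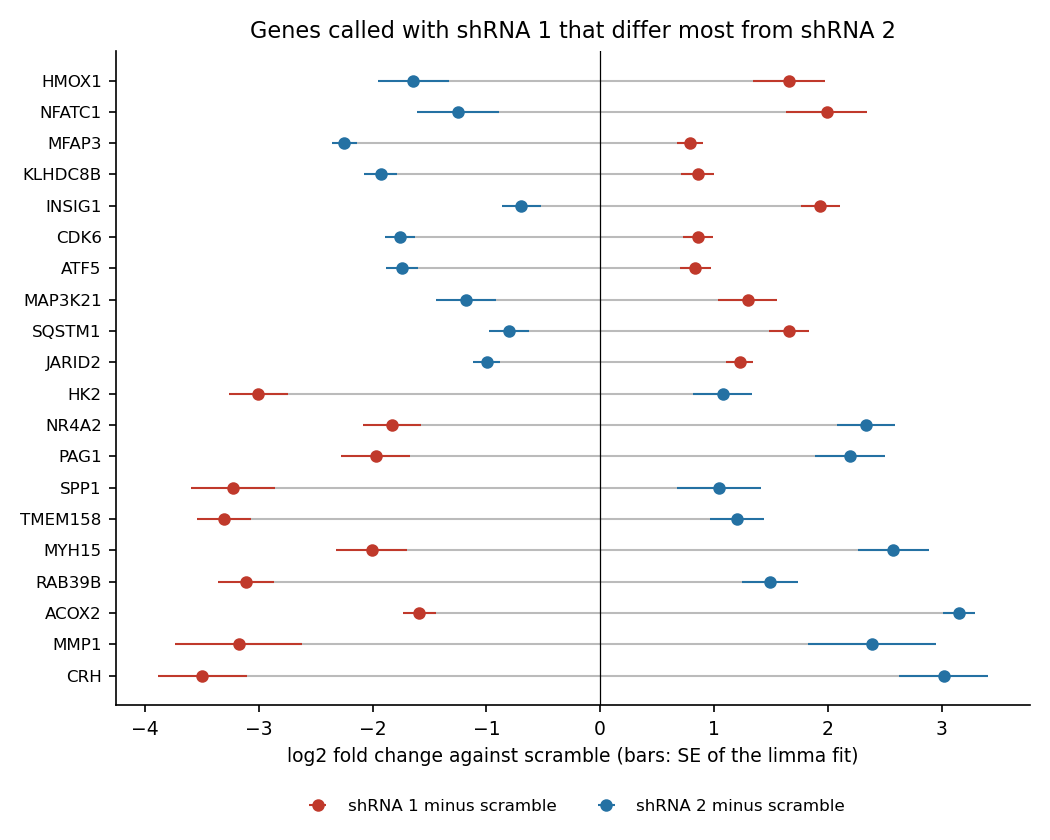
Log2 fold change against scramble (horizontal axis) with shRNA 1 (red) and shRNA 2 (blue) for the 20 genes called with shRNA 1 that differ most between the hairpins; bars are the SE of the limma fit. HMOX1 is at the top with 1.66 and -1.64 and CRH at the bottom with -3.49 and 3.02; the genes were chosen for this difference, and both sets share the scramble arrays.

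Among 31 glycolysis and hypoxia genes 4 fell (12.9%, against 6.79% of all tested genes) and none rose. The median was -0.34, with 23 members below 0. With the block 8 fell and none rose, where 14.6% of all tested genes fell. The 4 were HK2 by 3.00, HK1 by 1.48, the regulator PFKFB3 by 1.48 and VEGFA by 1.70. The other 2 probe sets of HK2 had -1.94 and -1.59 and were not called. HK1 read 9.47 and 9.66 in scramble cells and 8.004 and 8.16 with shRNA 1. Of 46 oxidative phosphorylation subunits 2 fell (4.35%, below the share of all tested genes), and the median was -0.02. COX6A1 of cytochrome oxidase fell from 13.78 and 13.60 to 12.25 and 12.29, and ATP5ME of ATP synthase by 0.80.

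Genes of cholesterol synthesis had 5 of 19 members higher (26.3%, against 2.82% of all tested genes) and none lower, with a median of 0.28. Besides INSIG1, the farnesyl diphosphate synthase FDPS rose from 12.45 and 12.04 to 13.50 and 13.51. MSMO1, HMGCS1 and MVD, further enzymes of the pathway, rose by 0.79, 0.72 and 0.72. SQLE and LSS, which act between FDPS and MSMO1, had -0.26 and -0.19 and did not pass.

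Of 16 glutathione and NRF2 genes, 2 rose and 2 fell (12.5% each, against 2.82% and 6.79% of all tested genes). HMOX1 and the quinone reductase NQO1 rose, NQO1 from 11.996 and 11.93 to 12.69 and 12.76. TALDO1, the transaldolase of the pentose phosphate pathway, fell from 11.78 and 11.56 to 9.84 and 9.84, and GCLC, the catalytic subunit of glutathione synthesis, fell by 0.97 on its brightest probe set and had -0.29 on the other. TXNRD1, GCLM and SRXN1, other genes that NRF2 is known to induce, had 0.56, 0.18 and -0.15 and did not pass. With the block 5 members of the list were higher, TXNRD1 among them (limma adjusted p = 0.038), and 3 lower. Over all tested genes 10.3% were higher and 14.6% lower with the block.

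The integrin list had a median of -0.61 with 10 of 13 members below 0, of which 1 passed, and 1 rose. By calls 7.69% of the list fell, near the 6.79% of all tested genes, and 7.69% rose, against 2.82%. ITGB1, the beta chain shared by many matrix receptors, fell from 14.05 and 14.38 to 12.79 and 13.16, and its other probe sets fell by 2.02 and 1.81. ITGAV rose by 0.71. With the block 6 of the 13 integrin genes fell (14.6% of all tested genes did) and 1 rose (10.3% of all tested genes did). Of 22 tested laminin, collagen and other matrix genes, 2 fell and 2 rose, with a median of 0.26. That was 9.09% each, against 6.79% and 2.82% of all tested genes. COL13A1, a membrane collagen, and LAMB3, a laminin chain, fell by 1.97 and 1.77, but COL13A1 had -0.80 and -0.76 on its other probe sets. TGFBI and NID1 rose by 1.10 and 0.88. Of 12 tested matrix protease, plasminogen and inhibitor genes, 2 fell (16.7%, against 6.79% of all tested genes) and none rose. PLAUR, the urokinase receptor, fell from 11.68 and 11.66 to 10.13 and 9.68. Limma called 0 of 29 focal adhesion and actin genes, beside 9.61% of all tested genes. Of the 29, 10 had an unadjusted p under 0.05, and 3 were higher and 4 lower with the block.

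Among 31 genes of cell death, BAD read 6.89 and 6.79 in scramble cells and 4.93 and 4.66 with shRNA 1, BCL2L2 7.43 and 7.27 against 5.195 and 5.45, and PMAIP1 11.07 and 10.63 against 9.53 and 8.67. All 3 fell; BAD and PMAIP1 promote death and BCL2L2 opposes it. No other member was called without the block, so 9.68% of the list was called, near the 9.61% of all tested genes. With the block 5 members were lower and 2 higher, where 14.6% and 10.3% of all tested genes were. The higher ones were the death-promoting BCL2L11 (BIM) and BIK. BCL2L11 read 6.88 and 7.83 against 8.37 and 9.22, a difference of 1.43 that was 1.48 and 1.39 in the pairs (limma adjusted p = 0.16, and 0.0059 with the block). Of 26 growth factor receptor and ERK feedback genes, the ERK phosphatase DUSP6 fell by 1.41, the inhibitor SPRED2 by 1.11 and the ERK-induced factor ETV5 by 1.01, and none rose. The 3 lower genes were 11.5% of the list, where 6.79% of all tested genes fell. With the block 7 of the 26 were lower and 1, ERBB3, was higher. The neuropeptide and secretory granule list had 3 of 12 members lower (25%), CRH, VGF and DPYSL3. DPYSL3 is a cytoskeletal regulator and neither a neuropeptide nor a granule protein. CHGB and SCG2, granule proteins, had -2.53 and -1.16, which passed with the block (adjusted p = 0.009 and 0.021), and with the block 7 of the 12 were lower. Of 24 interferon response genes IFIT1, IFIT3 and IFI35 rose and the immunoproteasome subunit PSMB8 fell, by 1.94, 1.03, 1.03 and 0.76. The interferon list thus had 12.5% higher and 4.17% lower, against 2.82% and 6.79% of all tested genes. With the block 7 interferon genes were higher and 2 lower. The cytosolic ribosomal proteins were level: 0 of 32 were called by limma, 1 had an unadjusted p under 0.05, 1 was lower with the block, and all 32 had intervals within 2-fold.

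Probe sets of the same gene disagreed in other genes besides EIF2S1. There were 22 probe sets called with at least a 4-fold change where the brightest probe set of the gene was not called, in 16 genes, 19 of them lower and 3 higher. Of all tested probe sets, 0.824% were called with at least that change. RBM8A, a core protein of the exon junction complex, read 11.73 and 11.33 in scramble cells and 11.40 and 10.98 with shRNA 1 on its brightest probe set. A second read 10.16 and 10.09 against 6.14 and 6.15, and another 7.74 and 7.499 against 3.28 and 2.69. Of the 6 tested RBM8A probe sets, 4 fell, by 2.30 to 4.64, and 2 were not called. With shRNA 2 those 4 had -0.45 to 0.19.

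NT5E, the ecto-enzyme CD73, had -0.47 on its brightest probe set, which passed only with the block (adjusted p = 0.036), and -2.48, -2.45 and -2.64 on 3 others. One of these read 11.25 and 11.44 in scramble cells and 9.01 and 8.77 with shRNA 1. A probe set of COL1A1 rose instead, from 2.73 and 2.39 to 6.62 and 7.02, and read 6.31 and 6.62 with shRNA 2, while the brightest of COL1A1 had 0.20. The seryl-tRNA synthetase SARS1 had -2.42 on a dimmer probe set and -0.52 on its brightest, which passed only with the block (adjusted p = 0.032). Of the 1012 called genes, 504 had other tested probe sets, and in 256 of these another one was called in the same direction, in 4 in the opposite direction. These probe sets were singled out after their values were seen.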

How the data were processed

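The deposited values are log2 levels that the authors made with GCRMA (tool named in the submitters' processing notes, without a version); the log2 scale was read from the highest value, 15.91. GCRMA corrects background, normalizes between arrays and summarises probes, and compresses dim probe sets to a floor, where 37.7% to 38.7% of each array's values stood. Labelling began with 250 ng of RNA, per the labels.

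All 6 arrays entered 1 linear model in limma 3.58.1 (R 4.3.3), with 3 residual and 2.01 prior degrees of freedom, no block, two-sided tests and Benjamini-Hochberg adjustment over 22330 probe sets; "called" means adjusted p under 0.05. Of 54675 probe sets, 62 were controls, and by the platform annotation 41091 had 1 symbol, 1801 several and 11721 none; the last were not named. A gene was read through its brightest probe set. The number of arrays limits precision (median SE 0.17). On simulated data for this comparison over 22330 probe sets, 26 of 100 changes of 1 log2 unit and 64 of 100 of 2 units were recovered, with 4 false calls. The simulated noise was independent between arrays and few probe sets were changed. These rates need not hold for the data, where same-numbered arrays deviated together.

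Replicate numbers come from the titles. Deviations of same-numbered arrays correlated at 0.70, 0.48 and 0.51 between groups, all over 0.1, so blocked values are given where they change the call of a named gene's brightest probe set or move a list's count by over 1.5 times.

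Named genes were KDM5A, KDM5B and KDM5C, the 15 largest changes each way at least 2-fold in both pairs, called members of each list (up to 8, or the 2 largest), a set of defining genes and the 10 largest differences each way from shRNA 2; other members named were picked as examples. The members, the 36 lists (956 genes, 703 tested), the motifs and the tests were chosen with earlier results of these data known. A withheld item and its results are not reported here. Promoters are from RefSeq.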

Additional observations from a re-analysis of the deposited data

How the results depend on the processing

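Signs were compared for 128 called genes of the naming rule under settings that can change the fitted difference. A gene with 1 tested probe set keeps its difference when probe sets are averaged. A gene whose brightest probe set stays in keeps it when probe sets that can cross-hybridise are left out. For such genes the same sign was fixed in advance. When probe sets of a gene were averaged, 128 of 128 had the same sign and 8 were no longer called, with quantile normalization 128 and 1, and without probe sets that can cross-hybridise 92 of 92 and 2. The groups of called genes do not overlap, so leaving out an array cannot turn their sign. With the replicate block 5256 probe sets, 2626 genes and 202 list members were called, in place of 1994, 1012 and 105. With only the 4 arrays of shRNA 1 and scramble, 0 of each were called and KDM5A kept -2.04 with adjusted p = 0.057, but adding the block to those 4 arrays, a setting chosen after seeing the data, gave 3754, 1878 and 168. Without the minimum mean, 314 probe sets, 142 genes and 13 list members were called, and 1698 genes in place of 4099 between the hairpins. Fewer probe sets were tested, and called, at gene level (1213 by the brightest and 1213 by the mean of all) and without probe sets that can cross-hybridise (1322). A mean of at least 6, floor ties left out, quantile normalization and an intensity trend gave 1987 to 2083. Leaving out any 1 array gave 0 called probe sets, genes and list members against scramble, where 178 to 196 list members had an unadjusted p under 0.05; KDM5A then ranged from -2.12 to -1.96 (adjusted p = 0.057 to 0.079), and genes called between the hairpins from 1570 without shRNA_2 replicate 1 to 3372. Uncalled genes changed sign without 1 array: CDK1 lay between -0.69 and 0.17, CCNB1 between -0.20 and 0.73, MKI67 between -1.36 and 0.31, PCNA between -0.60 and 0.63, MCM2 between -0.62 and 0.84 and KDM5C between -0.0002 and 0.41. Past 1.5-fold in both pairs were 1584 genes and 162 list members, in place of 553 and 76 past 2-fold. The cause of these shifts was not tested beyond the smaller number of arrays or probe sets.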

Other observations

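TGF-beta genes had 3 of 21 members higher (14.3%, against 2.82% of all tested genes) and none lower. With the block 6 were higher and 2 lower, where 10.3% of all tested genes were higher and 14.6% lower. SMAD6, which inhibits the pathway, read 4.77 and 5.13 in scramble cells and 6.40 and 6.52 with shRNA 1, a rise of 1.51 ± 0.16 (limma adjusted p = 0.014). The co-receptor TGFBR3 rose from 10.28 and 10.39 to 11.17 and 11.39, and SKIL, a repressor of SMAD transcription, rose by 0.85 and was higher on 2 other probe sets. ID2, an inhibitor of differentiation factors, read 10.50 and 8.90 against 12.44 and 11.02. Its difference of 2.04 was 1.94 and 2.13 in the pairs, and it passed only with the block (adjusted p = 0.009). Of 34 lysosomal genes, the sialidase NEU1 and the thioesterase PPT1 rose by 1.30 and 0.82, while ATP6AP1 of the proton pump fell by 1.34. The cholesterol exporter NPC1 fell by 0.92, with 0.41 on its other probe set. The lysosomal list had 11.8% of its members called, near the 9.61% of all tested genes. With the block 7 lysosomal genes were higher and 5 lower.

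The histone variant gene H2AZ2 fell from 12.49 and 12.10 to 10.80 and 10.28, and its 3 other probe sets were also called lower. No other of 21 histone genes was called, so 4.76% of the list was, beside 9.61% of all tested genes. With the block 6 were higher, among them H2BC4 at 1.47 and H1-2 at 1.21, where 10.3% of all tested genes were. Of 16 epithelial and mesenchymal markers 25% were called, beside 9.61% of all tested genes. The mesenchymal factors PRRX1 and ZEB2 fell by 2.29 and 1.04 and the tight junction protein CLDN1 by 1.51, and keratin KRT8 rose by 0.74. Limma called 0 of 12 NF-kB targets and cytokines (3 with an unadjusted p under 0.05), and with the block 3 were higher, among them NFKBIA at 1.17 and TNFAIP3 at 1.14, and 1 was lower.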
